A study of Mus musculus with 2 samples.

Results

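The genes that place and pattern the limb were followed through whole-genome bisulfite sequencing (WGBS) of mouse osteoblasts with and without the TET enzymes. The 10 genes, Prrx1, Tbx4, Tbx5, Pitx1, Lmx1b, Shox2, Hand2, Meis1, Meis2 and Tbx15, were taken by name from 21938 protein-coding genes (GENCODE M21, GRCm38), and all 10 were found and had calls in both libraries. Primary osteoblasts came from 3-day-old C57BL/6 mice and were cultured before DNA was taken. WT was labelled wild type. TCKO mice carried floxed alleles of Tet1, Tet2 and Tet3 deleted by Prx1-Cre, a transgene in which a regulatory fragment of Prrx1 drives Cre in limb bud and part of the cranial mesenchyme, so that cells outside that lineage keep their Tet genes. The study's culture methods take osteoblasts from the parietal bone of the skull, so the cells compared may be cranial and not limb cells. There was 1 WT library and 1 TCKO library. Every difference below is therefore a difference between 2 libraries with no replicate check, and the intervals and p-values speak of counting error alone. They treat every call as independent, although neighbouring CG cytosines can be read on the same molecule, so they can understate even that error.

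These genes encode transcription factors of the limb field. Tbx5 is needed for the forelimb to start growing, Tbx4 acts in the hindlimb, and Pitx1 gives the hindlimb its identity. Prrx1 is made throughout limb and craniofacial mesenchyme, Tbx15 and Shox2 act in the mesenchyme of the proximal skeleton, Lmx1b specifies dorsal structures, Hand2 the posterior margin, and Meis1 and Meis2 the proximal limb. Genes of this kind often lie in broad valleys of unmethylated CG that reach well past the promoter. TET enzymes oxidise 5-methylcytosine (5mC) to 5-hydroxymethylcytosine (5hmC) on the way to its removal. Bisulfite sequencing reads both as methylated, so a methylation level here is the share of CG calls carrying either.

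The WT library held 261062118 CG calls on chromosomes 1 to 19, X and Y and the TCKO library 223581206. With all calls pooled, 70.2% were methylated in WT and 76.3% in TCKO, so a region that moved like the genome gained 6.06 percentage points. In stretches near the 3′ ends of Tet1, Tet2 and Tet3 the calls fell from 755 to 70, from 122 to 13 and from 133 to 9, which is the check of the labels. Around the TSS, WT levels of 6 osteoblast markers ran from 3.38% (Col1a1) to 76.8% (Bglap), those of 4 haematopoietic markers from 65.7% to 77.4% and those of 3 endothelial markers from 69.3% to 80.0%. The epithelial markers Cdh1, Epcam and Krt5 stood at 29.3%, 41.8% and 73.0% and the muscle markers Myod1 and Myf5 at 34.1% and 57.4%, so low levels were not limited to osteoblast markers. Their part in the results was not tested.

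Sequences are shown here for the places where these genes changed most: the 200 bp bin with the largest gain in each of the 6 gene windows that had the largest gains (a window is the gene plus 50 kb on each side), and 1 bin of Prrx1 with 10 CG cytosines that was chosen after its values were seen. They are read 5′ to 3′ from the plus strand of GRCm38, and capitals mark the CG dinucleotides whose calls were counted.
Prrx1, 24.8 kb upstream of the TSS (chr1:163338401-163338600): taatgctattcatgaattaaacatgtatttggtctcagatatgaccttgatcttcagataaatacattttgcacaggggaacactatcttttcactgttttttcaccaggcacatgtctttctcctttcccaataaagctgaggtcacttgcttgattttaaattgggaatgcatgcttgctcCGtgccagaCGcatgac
Prrx1, intron 1, 13.8 kb downstream of the TSS (chr1:163299801-163300000): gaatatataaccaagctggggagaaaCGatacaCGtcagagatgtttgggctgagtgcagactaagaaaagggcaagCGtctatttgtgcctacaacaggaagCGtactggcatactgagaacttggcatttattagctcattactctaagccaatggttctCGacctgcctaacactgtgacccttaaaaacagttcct
Meis2, intron 8 (chr2:115970601-115970800): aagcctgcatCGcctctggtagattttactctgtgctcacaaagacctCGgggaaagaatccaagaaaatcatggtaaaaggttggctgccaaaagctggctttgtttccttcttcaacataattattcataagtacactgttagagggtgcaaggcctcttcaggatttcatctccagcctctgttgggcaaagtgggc
Tbx15, intron 1 (chr3:99295401-99295600): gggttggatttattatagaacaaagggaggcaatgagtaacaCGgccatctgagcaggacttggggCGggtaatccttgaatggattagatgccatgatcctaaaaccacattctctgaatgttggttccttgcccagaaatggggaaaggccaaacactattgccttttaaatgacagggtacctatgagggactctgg
Shox2, downstream of the gene (chr3:66922401-66922600): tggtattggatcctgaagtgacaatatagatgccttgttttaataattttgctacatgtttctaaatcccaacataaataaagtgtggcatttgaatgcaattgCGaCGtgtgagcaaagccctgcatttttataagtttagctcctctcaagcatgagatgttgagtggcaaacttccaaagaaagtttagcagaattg
Tbx5, intron 7 (chr5:119868401-119868600): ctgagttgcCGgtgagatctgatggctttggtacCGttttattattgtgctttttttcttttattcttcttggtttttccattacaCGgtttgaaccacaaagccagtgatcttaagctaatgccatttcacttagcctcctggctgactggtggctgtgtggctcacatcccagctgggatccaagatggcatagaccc
Tbx4, downstream of the gene (chr11:85955601-85955800): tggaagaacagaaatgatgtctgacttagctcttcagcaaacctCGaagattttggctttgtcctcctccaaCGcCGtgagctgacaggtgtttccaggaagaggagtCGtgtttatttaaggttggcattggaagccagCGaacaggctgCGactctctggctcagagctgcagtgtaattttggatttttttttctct

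All 7 bins stood at or below 18.2% in WT and at or above 76.9% in TCKO. In the Prrx1 upstream bin 1 of 23 calls was methylated in WT (4.35%, 95% Wilson interval 0.772 to 21.0) and 16 of 17 in TCKO (94.1%, 73.0 to 98.95), a gain of 89.8 points (adjusted Fisher exact p = 5.09e-07 over all testable bins). In the Prrx1 intron 1 bin, 2 of 53 calls were methylated in WT (3.77%) and 55 of 60 in TCKO (91.7%), a gain of 87.9 points (adjusted Fisher exact p = 2.14e-20). All 5 of its CpGs moved: 3 had no methylated call in WT, and the 5 stood at 85.7% to 100% in TCKO. The 7 bins rest on few CpGs: 2 in the Prrx1 upstream, Meis2, Tbx15 and Shox2 bins, 3 in Tbx5 and 6 in Tbx4. Neighbouring CpGs can share reads: the 2 of Shox2 had 22 WT and 15 TCKO calls each. In the 5 bins outside Prrx1 the gains were seen at each CpG. They were 82.8 points in Meis2 (2 of 26 calls in WT, 38 of 42 in TCKO), 82.4 in Tbx15 (0 of 23 and 14 of 17), 82.1 in Shox2 (2 of 44 and 26 of 30), 66.6 in Tbx5 (10 of 97 and 20 of 26) and 62.3 in Tbx4 (16 of 88 and 66 of 82). The remaining windows had largest gains of 60.6 points in Meis1 (intron 7), 58.8 in Lmx1b, 53.5 in Hand2 and 46.6 in Pitx1, the last inside the neighbouring genes Pcbd2 and 4930451E10Rik.

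At the promoters the limb genes moved little. The TSS domain, the 4 kb centred on the TSS, gained 10 points or more in 0 of the 10 genes, beside 24.3% of 21773 protein-coding genes, and the median difference was 0.32 points for the 10 genes and 4.72 points for all genes. By the Fisher exact test, adjusted over all genes, 1 of 10 was higher in TCKO (background 38.1%) and 2 of 10 were lower (background 2.87%). The promoters were also far less methylated to begin with: the WT median was 5.90% for the 10 genes and 45.2% for all genes.

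Among the genes that mark a limb type, the forelimb gene Tbx5 (chr5:119832668-119885219, plus strand) fell from 7.09% in WT (95% interval 5.29 to 9.45, 592 calls) to 3.67% in TCKO (2.39 to 5.60, 545 calls), with an adjusted Fisher exact p of 0.0335. The hindlimb gene Tbx4 (chr11:85886422-85916097, plus strand) stood at 26.7% in WT (24.1 to 29.5) and 23.1% in TCKO (20.4 to 25.9), and the hindlimb gene Pitx1 (chr13:55825051-55836192, minus strand) at 5.91% (4.22 to 8.23) and 8.51% (5.95 to 12.03). The intervals of the 2 libraries overlap in all 3 genes, and the adjusted p was 0.139 for Tbx4 and 0.276 for Pitx1. In a 10 kb domain both were called, Tbx4 lower by -4.14 points and Pitx1 higher by 8.93 points (adjusted Fisher exact p = 0.0285 and 1.07e-04), while Tbx5 was not (adjusted p = 0.134). The principal transcript of Pitx1 starts 4767 bp downstream of the gene's first TSS, and around that start its difference was 2.09 points (adjusted Fisher exact p = 0.467). With 1 forelimb gene and 2 hindlimb genes, the values stand side by side without a test between the limb types.

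Among the mesenchyme and axis genes, Lmx1b (chr2:33560965-33640511, minus strand) fell from 6.44% (4.91 to 8.38) to 2.84% (1.81 to 4.45), with an adjusted Fisher exact p of 0.00598. Neither fall held under all of the alternatives. In a 2 kb domain neither Lmx1b nor Tbx5 was called (adjusted Fisher exact p = 0.454 and 0.560), and on the minus strand alone neither was (0.106 and 1). Lmx1b was not called in a 10 kb domain either (adjusted Fisher exact p = 0.0622). The principal transcript of Tbx5 starts 1995 bp downstream of the gene's first TSS, and around that start its difference was -0.081 points (adjusted Fisher exact p = 1). Shox2 (chr3:66971727-66981771, minus strand) stood at 5.88% in WT and 7.06% in TCKO, Hand2 (chr8:57320983-57324633, plus strand) at 2.49% and 3.18%, Meis1 (chr11:18879817-19018985, minus strand) at 3.25% and 3.00%, and Meis2 (chr2:115863064-116065839, minus strand) at 0.638% and 0.592%. These 4 promoters were close to unmethylated in both libraries and none of their differences passed the test. Tbx15 (chr3:99240381-99354259, plus strand) was the most methylated promoter of the 10, at 33.1% in WT and 34.3% in TCKO. Its principal transcript starts 13379 bp further downstream, and around that start the level rose by 9.62 points (adjusted Fisher exact p = 1.15e-04).

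Prrx1 (chr1:163245119-163313710, minus strand) was the only one of the 10 promoters called higher, from 1.32% (0.828 to 2.11, 1284 calls) to 3.47% (2.85 to 4.21, 2770 calls), with an adjusted Fisher exact p of 3.12e-04. The TCKO library held more calls there than the WT library although it held 0.856 times as many over the genome. The excess, delimited after the values were seen, lay in a 2400 bp stretch from 309 bp inside the gene to 2090 bp upstream (chr1:163313401-163315800), with 675 WT calls and 2331 TCKO calls, 4.03 times the genome-wide ratio. Of the 1 kb windows of the genome with at least 50 WT calls, 0.275% exceeded a ratio of 2. Outside the stretch, 1 such window in intron 1 of Prrx1 (chr1:163305001-163306000) also exceeded it. Its ratio was 2.90, with 50 WT and 124 TCKO calls. The methods do not give the position of the Prrx1 fragment in the Cre transgene, and calls from the transgene and from the gene itself cannot be told apart here. Without the positions of the stretch the Prrx1 TSS domain was at 0.161% in WT (623 calls) and 0% in TCKO (484 calls), so its call as higher rests on the stretch. Inside the stretch the level was 3.56% (2.40 to 5.24) in WT and 4.50% (3.73 to 5.42) in TCKO, with intervals that overlap. In a 10 kb domain Prrx1 was called lower, by -2.39 points (adjusted Fisher exact p = 0.0101), and this call rests on the stretch as well: without it the difference was 2.54 points and was not called (adjusted p = 0.157). The TSS domain of Prrx1 outside the stretch was thus unmethylated in both libraries to within 0.904% and 0.787%, the upper ends of the intervals.

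**Figure D1:**
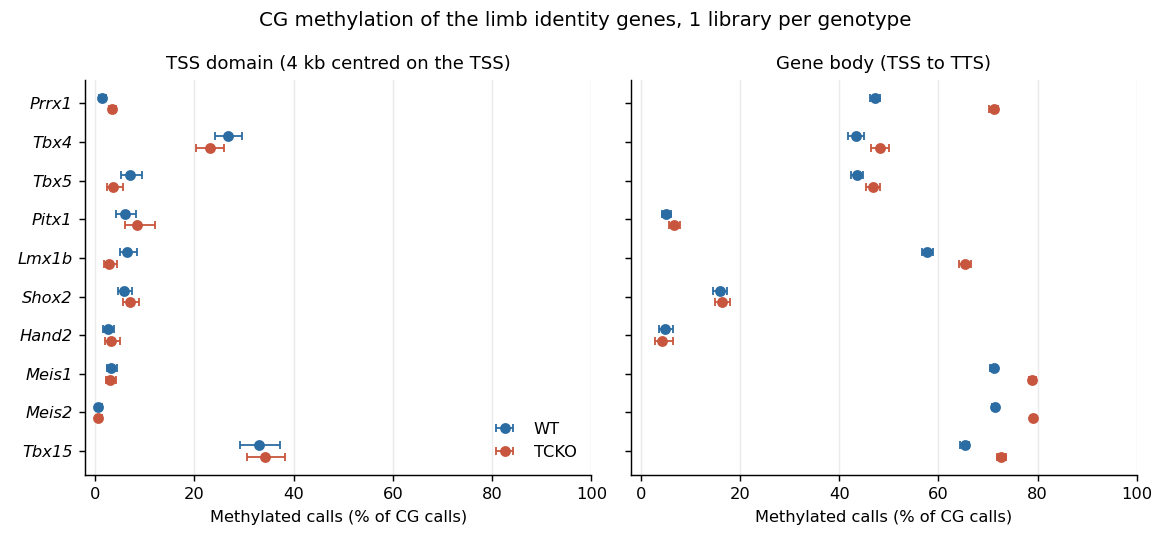
CG methylation of the 10 genes in the TSS domain (left) and gene body (right); the x axis is the percentage of methylated CG calls, points are the single WT (blue) and TCKO (red) library, and bars are 95% Wilson intervals for counting error. The TSS domain that differs most, that of Tbx4, stands at 26.7% and 23.1%, while the Prrx1 gene body moves from 47.1% to 71.2%.

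In the gene bodies, from TSS to TTS, Prrx1 moved most among the 10. It rose from 47.1% in WT (46.1 to 48.2, 9102 calls) to 71.2% in TCKO (70.2 to 72.1, 8766 calls), a gain of 24.0 points at percentile 99.5 of 21307 genes (adjusted Fisher exact p = 1.33e-234), and by 25.2 points without the stretch of excess calls. It was the 1 gene of 10 to gain 10 points or more, beside 15.3% of all genes. By the adjusted test 7 of 10 were higher in TCKO (background 65.3%) and 0 of 10 were lower (background 2.81%), and the median gain of 6.13 points lay near the 5.69 points of all genes. The 9 other gene bodies differed by -0.57 to 7.77 points.

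The long, mostly methylated bodies gained by similar amounts: Meis2 rose from 71.4% to 79.2%, Meis1 from 71.2% to 78.9%, Lmx1b from 57.8% to 65.4% and Tbx15 from 65.3% to 72.7%. The 2 T-box genes of limb type gained less, Tbx4 from 43.3% to 48.2% (adjusted Fisher exact p = 1.87e-04) and Tbx5 from 43.7% to 46.9% (adjusted p = 0.00121), and Tbx4 did not pass on the plus strand alone (adjusted p = 0.271). The 3 short genes had the lowest bodies of the 10, and none passed the test: Pitx1 stood at 5.09% and 6.70% (adjusted Fisher exact p = 0.0519), Shox2 at 15.9% and 16.5%, and Hand2 at 4.93% and 4.36%. On the minus strand alone, Pitx1 passed (adjusted Fisher exact p = 0.00313).

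The gain of Prrx1 lay mainly in its introns. Intron 1, 50379 bp long, went from 41.9% (40.7 to 43.1, 6487 calls) to 72.9% (71.8 to 74.0, 6442 calls), the other introns from 76.4% to 88.6%, and the 50 kb downstream from 71.0% to 84.4%. Its exons, which take in the 309 bp of excess calls inside the gene, stood at 45.3% (42.7 to 48.0) and 46.9% (44.1 to 49.7). Without those positions they stood at 47.7% (45.0 to 50.4, 1294 calls) and 54.9% (51.9 to 57.8, 1057 calls), a gain of 7.19 points with intervals that do not overlap. Tbx15, whose intron 1 is 54744 bp long, went there from 65.8% to 74.7%. The introns of Meis1 and Meis2 after the first stood at 74.5% and 73.7% in WT and at 83.0% and 81.8% in TCKO. Not all introns gained. Intron 1 of Meis1 went from 22.4% (18.5 to 26.8) to 10.3% (7.32 to 14.3). The Shox2 introns after the first went from 21.8% (18.5 to 25.5) to 14.4% (11.3 to 18.3).

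Ordered by distance from each gene's first TSS, the limb genes moved in both directions within 5 kb of it and were mostly higher in TCKO further out. Within 1 kb downstream of the TSS 3 of 10 were higher in TCKO, with a median difference of -0.69 points, and from 2 to 5 kb downstream 2 of 10 were, with a median of -1.25 points; the medians over all genes were 1.17 and 5.25 points. Upstream, 5 of 10 were higher within 1 kb, 5 of 10 from 1 to 2 kb and 6 of 10 from 2 to 5 kb. The medians were -0.096, -0.14 and 1.41 points, beside 3.45, 5.05 and 4.69 points over all genes. The share of all genes that were higher in each class was not counted. Single genes moved further: Pitx1 went from 49.8% to 69.7% between 2 and 5 kb upstream, Tbx15 from 46.3% to 61.0% between 1 and 2 kb upstream (41 calls in each library), Tbx4 from 82.4% to 70% within 1 kb upstream (34 and 40 calls) and Lmx1b from 34.6% to 21.2% between 1 and 2 kb downstream. Prrx1 went from 88.7% to 77.7% between 2 and 5 kb upstream, but stood at 91.2% and 92.2% there without the stretch of excess calls. From 5 to 10 kb, all 10 genes were higher downstream and 9 of 10 upstream, where Hand2 stood at 10.2% in WT and 9.30% in TCKO. From 10 to 20 kb and from 20 to 50 kb all 10 genes were higher on both sides, with medians from 6.30 to 7.61 points beside 4.99 to 5.68 points for all genes. Prrx1 had the largest gain in the 20 to 50 kb classes: 34.9 points downstream (45.8% to 80.7%) and 23.7 points upstream (54.2% to 77.9%). Its levels from 2 to 5 kb downstream were 3.62% and 3.61%, and from 5 to 10 kb downstream 35.5% and 70.4%. Tbx4 and Lmx1b were also higher in TCKO between 5 and 10 kb downstream, by 14.5 and 16.7 points, while Tbx5, with 2.94% and 3.84%, stayed within 1 point there.

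**Figure D2:**
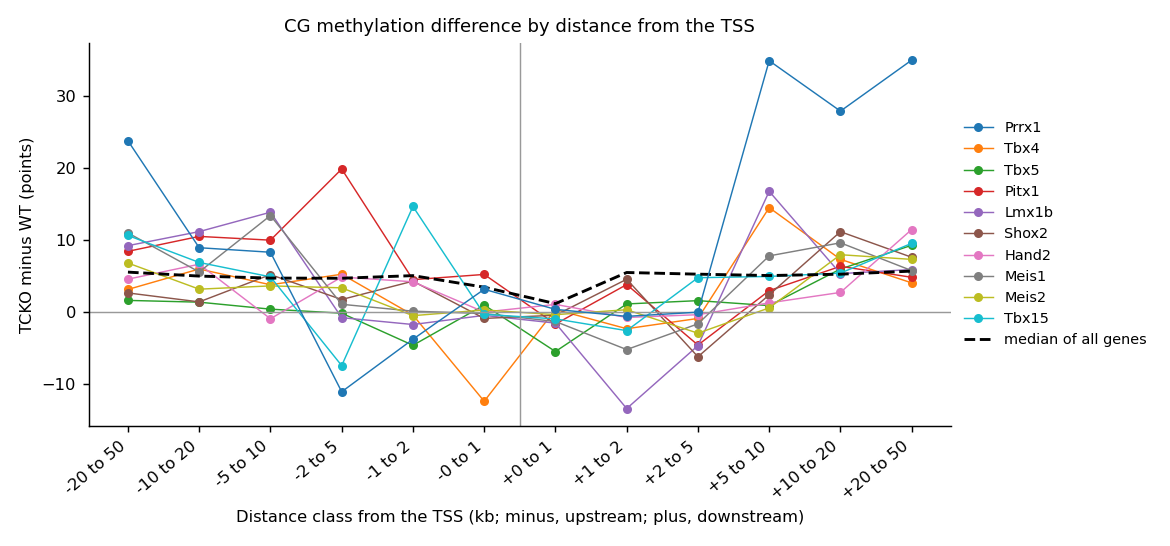
Difference in CG methylation (TCKO minus WT, percentage points) in distance classes upstream and downstream of the TSS for each of the 10 genes, with the median of all protein-coding genes dashed. Between the TSS and 5 kb downstream most of the genes lie near or below 0, the low Prrx1 point at 2 to 5 kb upstream (-11.0 points) takes in excess calls, and Prrx1 climbs to 34.8, 27.8 and 34.9 points in the 3 outer downstream classes.

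The valley of low methylation over each TSS was measured in each library as the run of 200 bp bins at 20% or less. Prrx1 lost part of its valley: it ran for 9400 bp in WT and 7200 bp in TCKO, and the 2200 bp at its downstream end went from 10.03% (319 calls) to 54.7% (327 calls). Shox2 shortened from 4600 to 3000 bp, though the 1400 bp lost at 1 end changed only from 14.2% to 18.3%. Tbx5 kept one of the longest valleys, 15800 bp in WT and 16200 bp in TCKO, and Meis2 went from 6400 to 6600 bp and Lmx1b from 4200 to 4800 bp. Pitx1, Meis1 and Tbx15 had runs of equal length in both libraries (5000, 3400 and 1400 bp), and Tbx4 had a short run of 600 and 400 bp. The runs of Pitx1 and Tbx15 do not reach their principal transcript starts, 4767 and 13379 bp downstream of the TSS used. From 5 to 10 kb downstream Pitx1 stood at 3.83% in WT and 6.80% in TCKO, so low levels went on past its run. Hand2 ran for 13400 bp in WT and 33800 bp in TCKO, but the 20400 bp in question were low in both (5.69% and 7.94%), and the WT run had ended at 2 neighbouring bins above 20%. In all, 3 of 10 runs were shorter in TCKO and 4 longer, beside 8821 shorter and 1749 longer of 15150 protein-coding genes. The median WT run was 4800 bp for the 10 genes and 1600 bp for all genes. Of the 286 genes whose runs averaged 5 kb or more over both libraries, 164 were shorter and 84 longer.

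A 200 bp bin was testable if it held 4 or more CG cytosines, with on average 4 or more calls per cytosine in each of the libraries. Of 2046 testable bins in the 10 windows, 114 gained 40 points or more (5.57%), beside 3.06% of 2534629 bins of the genome, and 108 of the 114 also had an adjusted Fisher exact p below 0.05. Prrx1 alone held 61 of them among its 247 testable bins (24.7%). Without the Prrx1 window 53 of 1799 bins gained (2.95%), close to the background. By limb type, 6 of 123 bins gained at the forelimb gene Tbx5, 4 of 231 at the hindlimb genes Tbx4 and Pitx1, and 43 of 1445 at the mesenchyme and axis genes other than Prrx1. Just inside the threshold lay a Meis2 bin with a gain of 40.02 points and just outside it a Tbx15 bin with 39.99.

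Among 13990 protein-coding genes whose windows held at least 100 testable bins, the Prrx1 window ranked 1 by its share of gained bins; the median window had 2.35% and the window of the bone collagen gene Col1a2, ranked 2, had 18.3%. High shares were also found next to Prrx1 on chromosome 1. The window of Gorab, ranked 3 with 28 of 166 (16.9%), shares 28.8 kb with that of Prrx1 and had 11 of 119 (9.24%) outside it, and the window of Mroh9, ranked 6 with 21 of 135 (15.6%), does not overlap it. The windows of Tbx5 (6 of 123, 4.88%) and Lmx1b (7 of 138, 5.07%) ranked 2073 and 1875. Tbx4 (2 of 143, 1.40%) and Shox2 (3 of 163, 1.84%) lay below the median window, and Hand2, Meis1, Meis2 and Tbx15 lay between 2.19% and 3.35%. Pitx1 had 2 of 88 and too few testable bins to be ranked. Only 1 bin of the 2046 lost 40 points or more (0.0481% of the genome's bins did), at Tbx5 20.8 kb upstream, where 22 calls in each library gave 81.8% in WT and 36.4% in TCKO (adjusted Fisher exact p = 0.0674).

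**Figure D3:**
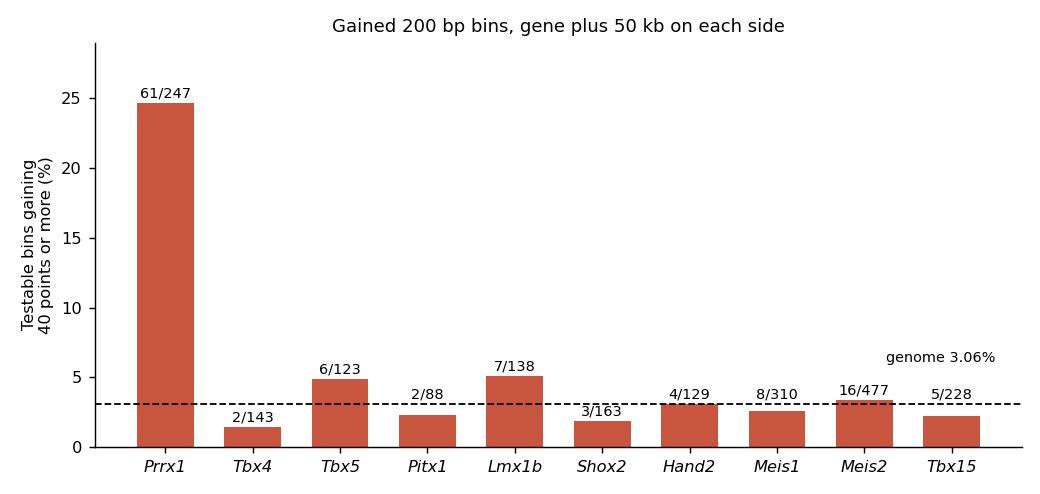
Share of testable 200 bp bins that gained 40 percentage points or more in TCKO within each gene plus 50 kb on each side; bar labels give gained over testable bins and the dashed line is the share over the genome (3.06%). The Prrx1 bar stands at 24.7% and the other 9 between 1.40% and 5.07%.

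The 61 gained bins of Prrx1 lay in patches on both sides of the TSS, with long spans between them, and were not gathered at the promoter. Of them 33 lay inside the gene, 18 upstream (of 75 testable upstream bins, 24.0%) and 10 downstream (of 63, 15.9%). By the exons of all annotated transcripts, 31 of the 33 were in introns (of 85, 36.5%) and 2 in exons. By the principal transcript, which is used for intron numbers here, 32 were in intron 1 and 1 in intron 3. None lay in the stretch of excess calls, and the nearest were 5.41 kb downstream and 11.4 kb upstream of the TSS. The longest clusters in intron 1 were a 4200 bp stretch with 8 gained bins (chr1:163266601-163270800, 32.3% to 79.0%), a 3000 bp stretch with 6 (chr1:163280401-163283400, 37.6% to 82.1%) and a 1600 bp stretch with 5 (chr1:163299201-163300800, 12.4% to 78.7%), and the last holds the intron 1 sequence shown above. Far upstream, 9 gained bins over 3000 bp (chr1:163356201-163359200) went from 12.9% (10.4 to 15.8) to 62.7% (58.6 to 66.6), and 5 over 1200 bp (chr1:163361601-163362800) from 7.20% to 69.3%. The noncoding genes Gm37644 and Gm20471 overlap gained stretches of intron 1.

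**Figure D4:**
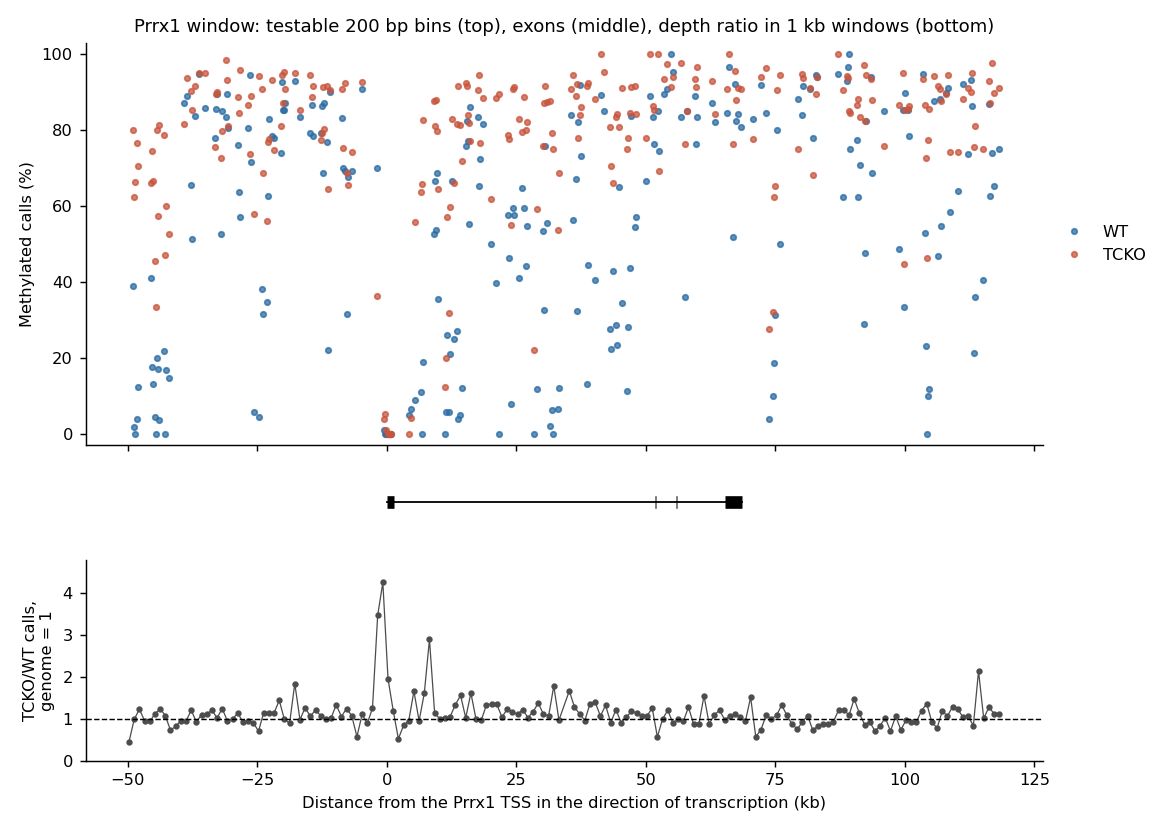
The Prrx1 window by distance from the TSS in kb: methylation in percent of every testable 200 bp bin in WT (blue) and TCKO (red), the exons of the principal transcript, and the ratio of TCKO to WT calls in 1 kb windows divided by the genome-wide ratio (1, dashed). Many WT bins below 30% through intron 1 and near the upstream edge have TCKO partners above 60%, bins at the TSS are near 0 in both libraries, and the ratio of calls peaks at 4.26 just upstream of the TSS.

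Outside Prrx1, most gained bins stood singly, as did all 5 of Tbx15, and some lay in groups. In Tbx5, 4 of its 6 lay within 1200 bp of intron 7 (chr5:119867401-119868600), which went from 22.9% (18.6 to 27.9, 310 calls) to 75.6% (68.6 to 81.5, 168 calls) and holds the Tbx5 sequence shown above. In Meis2, intron 8 held a group of 5 (chr2:115960801-115962000, 47.1% to 85.0%) and a pair (chr2:115970401-115970800, 15.3% to 81.4%) that holds the Meis2 sequence shown. Hand2 had 2 pairs far downstream, of which 400 bp at chr8:57361201-57361600 went from 16.3% to 68.1%. Lmx1b had a pair downstream of the gene (chr2:33535801-33536200, 21.3% to 73.9%), and Meis1 a pair 24.6 kb upstream of its TSS (32.5% to 82.6%).

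Regions that were low in WT had different shares of gains from window to window. Of bins below 30% in WT, 47 of 66 gained 40 points or more in the Prrx1 window (71.2%), 24 of 221 in the other 9 windows (10.9%) and 37.2% of 117724 in the genome. Among these low bins the median moved by 49.5 points in Prrx1, 2.41 points in the other windows and 27.3 points in the genome. Hand2 and Tbx5 had many low bins, 48 and 42, and 3 of each gained. The contrast was as large away from the TSS: of low bins over 5 kb from the TSS, 47 of 57 gained in Prrx1 and 23 of 165 in the others. Of low bins with under 10 CG cytosines, 43 of 55 gained in Prrx1 (78.2%), 21 of 145 in the others (14.5%) and 39.7% in the genome. The cut at 30% was chosen after the values were seen, and these shares carry no test.

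**Figure D5:**
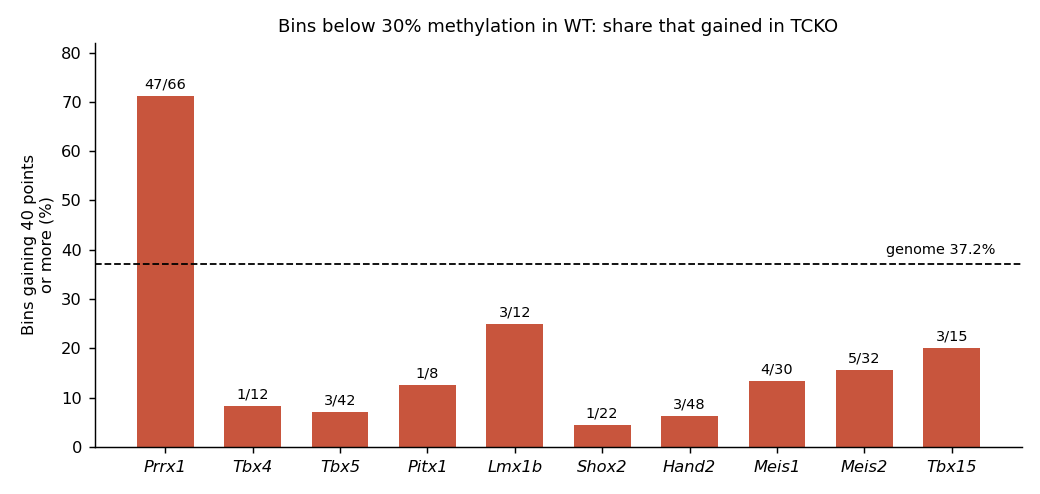
Of the testable bins below 30% methylation in WT, the percentage that gained 40 points or more in TCKO, by gene window; bar labels give gained over low bins and the dashed line is the share over the genome (37.2%). Prrx1 stands at 71.2% and the other 9 windows between 4.55% and 25%.

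Short strings bound by known factor families were searched on both strands of the gained bins, without mismatches, and none of the strings contains another. AACCACA, the string of Runt factors such as the osteoblast regulator Runx2, was in 14 of 114 gained bins (12.3%) beside 5.00% of all testable bins and 8.94% of the gained bins of the genome. Of the 14, only 3 were among the 61 Prrx1 bins (4.92%) and 11 among the 53 others (20.8%), the Tbx15 and Tbx5 bins shown above included. TGACTCA (AP-1) and CATTCCA (TEAD) were each in 9 bins (7.89%), beside 3.01% and 3.19% of all testable bins. Among the genome's gained bins AP-1 was in 8.43% and TEAD in 5.59%, so the AP-1 share here was near that of gained bins in general. The strings of the limb factors themselves were about as frequent as in all testable bins: TGACAG (MEIS) 12.3% beside 11.8%, TAATTA (homeodomain) 7.02% beside 7.24%, TAATCC (PITX) 8.77% beside 9.77%, GGTGTGA (T-box) 1.75% beside 2.38% and CATCTG (an E-box of HAND type) 13.2% beside 13.7%. In the same order, the genome's gained bins held them in 13.4%, 5.51%, 6.91%, 2.29% and 16.9%. These are counts of letters, not of binding.

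Relatives and partners of the 10 genes were read in the same way. Of 10 paralogues and neighbours, Prrx2, the close relative of Prrx1, had the largest promoter change, from 33.7% (28.4 to 39.4, 282 calls) to 58.0% (51.4 to 64.2, 226 calls), with an adjusted Fisher exact p of 7.57e-07, and its gene body rose by 15.7 points. Lmx1a, the relative of Lmx1b, fell from 41.7% to 30.1% (adjusted Fisher exact p = 5.53e-05). In all 1 of 10 gained 10 points or more (background 24.3%), 2 of 10 were higher (background 38.1%) and 2 of 10 lower (background 2.87%) by the adjusted test, the other pair being Pitx3 (19.4% to 24.7%) and the T-box gene Tbx3 (5.50% to 2.62%).

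Of 35 other limb patterning genes, 6 promoters gained 10 points or more (background 24.3%), 9 were higher (background 38.1%) and 1 was lower (background 2.87%) by the adjusted test, so gains were no more frequent than over all genes. The 6 were the WNT enhancer Rspo2 (25.4% to 46.4%), the PBX cofactor Pbx3 (20.9% to 37.3%), the ligand Bmp2 (30.7% to 44.0%), the retinoic acid hydroxylase Cyp26b1 (74.6% to 86.1%), the zinc finger gene Sall4 (20.02% to 31.0%) and the hedgehog effector Gli3 (10.2% to 21.2%). The gene that was lower was Irx3 (14.8% to 9.33%). In the windows of the 35 genes 222 of 5600 bins gained (3.96%), with the highest share at Rspo2 (17 of 179, 9.50%), and in those of the 10 paralogues and neighbours 46 of 1315 (3.50%). The window of Tbx2 overlaps that of Tbx4, so the 42 testable bins upstream of Tbx4, of which 0 gained, are counted for both genes.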

How the data were processed

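DNA of primary osteoblasts was measured by WGBS in 1 WT and 1 TCKO library, grouped by the genotype in their labels. The authors aligned reads to GRCm38 with BSMAP 2.74, allowing 2 mismatches, and deposited, from unique alignments, the count of methylated calls and of all calls at each CG cytosine; CASAVA is also named in the submitters' processing notes, and duplicate removal is not given in the sources used here. Here calls were pooled over regions of GENCODE M21 genes with Python 3.11.15, numpy 2.4.6, pandas, scipy 1.17.1 and numba 0.67.0. The libraries averaged 5.97 and 5.11 calls per CG cytosine, so regions and not single sites were compared. Gene regions needed 50 calls in each library. The 2-sided Fisher exact test was adjusted by Benjamini-Hochberg over all protein-coding genes or all testable bins, and compares 2 libraries. The code was tested on simulated data. The 10 genes, the lists and the tests were chosen with earlier results of these data known. Named were all 10 genes, the largest gained bin of each window, and up to 8 listed genes whose TSS domain moved by 10 points or more. Pitx3, Tbx3, Irx3, Col1a2, Gorab and Mroh9 were named after their values were seen. Alternatives changed the domain, TSS, pooling, deep cytosines, strand, coverage minimum, gain, bin offset and flank. Other assays of the study were not analysed here.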

Additional observations from a re-analysis of the deposited data

How the results depend on the processing

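No paired analysis was possible because each genotype has 1 library, and for the same reason no library could be left out. With 1 library per genotype, differences between animals, cultures and library preparations cannot be told apart from genotype, and at about 5 calls per cytosine single sites are known only coarsely. In the TSS domain the count of genes gaining 10 points or more stayed at 0 under every alternative. The count called higher (1) was 2 with the principal transcript TSS and 0 on the minus strand alone or, an alternative added after seeing the data, without the Prrx1 stretch of excess calls. The count called lower (2) was 1 with the principal transcript TSS, and 0 in a 2 kb domain and on the minus strand; it stayed at 2 in a 10 kb domain, where the 2 were Prrx1 and Tbx4 in place of Tbx5 and Lmx1b. The Prrx1 promoter difference changed sign, to -2.39 points in a 10 kb domain and to -0.16 points without its stretch of excess calls. With the 10 kb domain and without the stretch, also added after seeing the data, it was 2.54 points and not called. In gene bodies, 2 genes instead of 1 gained 10 points or more on the minus strand alone, while the counts called higher or lower stayed between 6 and 8 and at 0. The 114 gained bins became 216 with a mean of at least 1 call, 32 with at least 10 calls, 199 at 30 points, 59 at 50 points and, an alternative also added after seeing the data, 53 without the Prrx1 window. The share of gained bins in the Prrx1 window was between 14.6% and 34.0% under all of the alternatives that keep it, against genome shares of 1.55% to 6.09%. The 1 lost bin became 16 with a mean of at least 1 call, 3 at 30 points and 2 with a 100 kb flank, and 0 with at least 10 calls, with the adjusted p required, at 50 points and with shifted bins. The causes of these moves were not tested, apart from the numbers of bins tested and the thresholds, which the alternatives themselves set.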
